A study of Mus musculus with 24 samples.

Results

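Punches of the mouse nucleus accumbens that carried much cortical neuronal RNA were compared with punches from the same treatment group that carried little. Libraries were chosen by the level of Slc17a7 in CPM, the count scaled to the library total. Within each of 4 groups of 6 libraries, the 3 libraries with the highest Slc17a7 are called cortex-rich and the 3 with the lowest cortex-poor, so all 24 of 24 libraries take part, 12 on each side. The groups are SNI Mef2c, SNI Gfp, Sham Mef2c and Sham Gfp. SNI mice had a tibial spared nerve injury on the left side, a model of chronic neuropathic pain. Sham mice had the operation with the nerve left alone. All mice also received AAV8 in both accumbens nuclei, carrying Mef2c with Egfp (Mef2c groups) or Egfp alone (Gfp groups), each behind the hSyn promoter, which is active in neurons. The mice were C57BL/6J or DBA/2J, 8 to 9 weeks old, and the labels state neither the strain nor the animal of a library, so a p-value here reflects only the spread among libraries, which may be partly technical. Tissue was punched bilaterally from coronal sections, and mRNA libraries held between 28328510 and 36570108 counts on the cortex-rich side and between 25477019 and 35601890 on the cortex-poor side.

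Mef2c, the vector gene, lay between 472 and 802 CPM in SNI Mef2c, 133 and 218 in SNI Gfp, 124 and 465 in Sham Mef2c and 142 and 212 in Sham Gfp. The libraries labelled Sham Mef2c 2 and Sham Mef2c 5, with 127 and 124 CPM, lay below every Sham Gfp library. SNI Mef2c 1 differed from all other libraries in its ventral striatum markers, and list counts that move by more than 1.5 times when it is left out are also given without it.

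Slc17a7 encodes VGLUT1, which loads glutamate into synaptic vesicles in most pyramidal neurons of the cortex and hippocampus. The accumbens is the ventral part of the striatum and is built mainly of GABAergic medium spiny neurons, which receive glutamate input but do not make VGLUT1 themselves. It borders cortex, the septum, the pallidum and the basal forebrain, so the position of a punch can bring in RNA of any of these.

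Slc17a7 (chr7:45163949-45176142, mm10) varied within every group. In SNI Mef2c, libraries 1, 4 and 5 had 1113, 222 and 203 CPM, against 121, 10.5 and 4.10 CPM in libraries 6, 2 and 3. In SNI Gfp, libraries 4, 2 and 3 had 559, 68.0 and 5.85 CPM, against 4.84, 2.54 and 1.60 CPM in libraries 6, 5 and 1. The 2 SNI Gfp libraries on either side of the border were nearly equal, with 170 Slc17a7 counts in library 3 and 169 in library 6. In Sham Mef2c, libraries 3, 6 and 1 had 74.8, 59.3 and 9.74 CPM, against 4.52, 3.34 and 2.40 CPM in libraries 2, 5 and 4. In Sham Gfp, libraries 1, 5 and 4 had 317, 266 and 167 CPM, against 53.7, 42.0 and 8.57 CPM in libraries 6, 3 and 2. The highest library exceeded the lowest 271-fold in SNI Mef2c, 349-fold in SNI Gfp, 31.1-fold in Sham Mef2c and 37.1-fold in Sham Gfp. Because the ranks were taken within groups, the sides overlap in level across groups. Of the cortex-rich libraries, 5 lay below the highest cortex-poor library, and 5 cortex-poor libraries lay above the lowest cortex-rich library. The mean was 255 CPM on the cortex-rich side and 21.6 CPM on the cortex-poor side (SD 312 and 35.5, n = 12 each). These values chose the libraries and are not a finding.

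**Figure D1:**
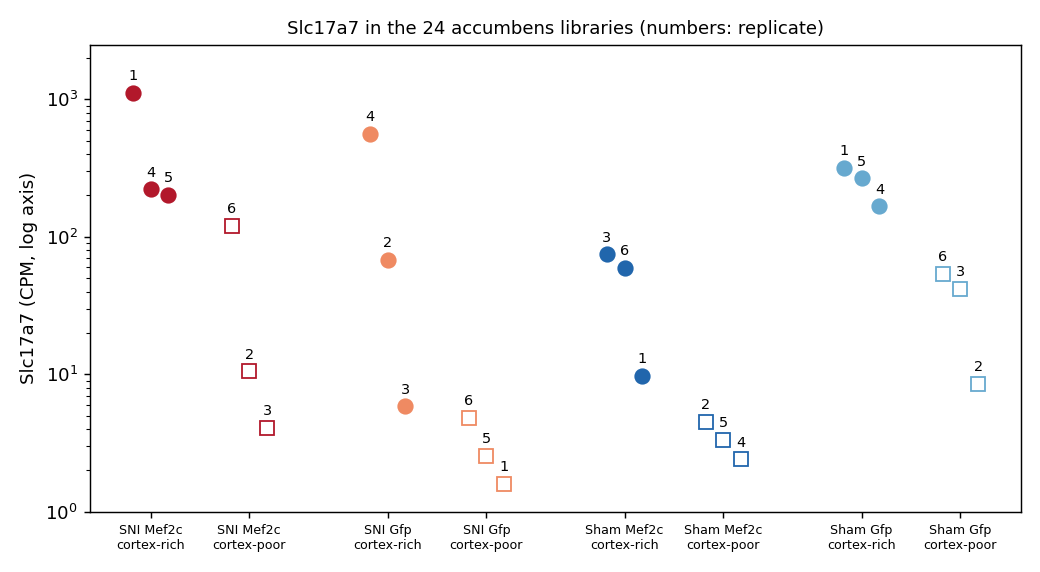
Slc17a7 in each library, in CPM on a log axis, with filled circles for cortex-rich and open squares for cortex-poor libraries of each group and the replicate number above each point. The points run from 1.60 to 1113 CPM, and SNI Gfp libraries 3 and 6 lie next to each other across the border.

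Since the split was drawn from these same libraries, a difference of another gene between the sides describes how closely that gene followed Slc17a7 and is not a test of a treatment. Log2 fold changes (cortex-rich over cortex-poor, with group as a covariate) are given with their standard error (SE). A gene is called higher or lower where edgeR's quasi-likelihood test gave an adjusted p under 0.05, used here as a label only. Of 23737 genes, 3152 were called (13.3%), 1592 higher (6.71%) and 1560 lower (6.57%), and the median log2 fold change over all genes was -0.01. Among the called genes, 111 were higher and 93 lower by more than 2-fold. Without TMM scaling the split of the calls was 1269 higher and 2349 lower. Leaving out SNI Mef2c 1 gave 2085 higher and 2055 lower of 23961 genes, the background for list counts without that library. The count of lower genes dropped to between 892 and 1039 when any of SNI Gfp 1, SNI Gfp 2, Sham Mef2c 3, Sham Gfp 1, Sham Gfp 3 or Sham Gfp 5 was left out.

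The upstream sequences of genes at the 2 ends of the comparison are shown because these genes moved together. They are the 250 bases before the RefSeq start (GRCm38.p6), 5′ to 3′ on the gene's strand, for Slc17a7 (chr7:45163671-45163920, + strand), Neurod2 (chr11:98329646-98329895, - strand), Neurod6 (chr6:55681264-55681513, - strand) and Cck (chr9:121495695-121495944, - strand), which were high on the cortex-rich side, and for Prlr (chr15:10176988-10177237, + strand) and Gal (chr19:3414545-3414794, - strand), which were high on the cortex-poor side. Capitals mark the E-box CAGATG or its reverse complement CATCTG, the type bound by NEUROD factors.
Slc17a7: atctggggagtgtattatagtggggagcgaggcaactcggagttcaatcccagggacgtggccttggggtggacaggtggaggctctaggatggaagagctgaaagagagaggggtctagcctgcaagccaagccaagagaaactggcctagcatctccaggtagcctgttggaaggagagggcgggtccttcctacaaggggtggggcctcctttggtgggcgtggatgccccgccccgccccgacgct
Neurod2: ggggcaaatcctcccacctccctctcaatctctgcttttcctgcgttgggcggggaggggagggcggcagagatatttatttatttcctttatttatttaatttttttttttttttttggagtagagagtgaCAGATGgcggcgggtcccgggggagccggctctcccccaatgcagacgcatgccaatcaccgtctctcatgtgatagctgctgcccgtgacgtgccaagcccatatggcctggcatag
Neurod6: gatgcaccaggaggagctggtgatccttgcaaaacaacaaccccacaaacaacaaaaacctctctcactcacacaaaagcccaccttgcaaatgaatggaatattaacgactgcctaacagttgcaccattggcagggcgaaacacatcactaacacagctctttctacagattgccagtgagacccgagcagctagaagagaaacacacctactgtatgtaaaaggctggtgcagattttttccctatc
Cck: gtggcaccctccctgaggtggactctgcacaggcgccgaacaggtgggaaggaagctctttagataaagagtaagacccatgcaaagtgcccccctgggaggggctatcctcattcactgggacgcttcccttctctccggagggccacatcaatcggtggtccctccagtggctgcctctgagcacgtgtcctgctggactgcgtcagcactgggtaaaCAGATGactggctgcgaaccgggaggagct
Prlr: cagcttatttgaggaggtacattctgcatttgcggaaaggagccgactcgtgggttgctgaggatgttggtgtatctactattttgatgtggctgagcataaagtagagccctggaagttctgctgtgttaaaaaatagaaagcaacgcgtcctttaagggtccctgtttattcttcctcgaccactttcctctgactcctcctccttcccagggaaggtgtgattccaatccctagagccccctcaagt
Gal: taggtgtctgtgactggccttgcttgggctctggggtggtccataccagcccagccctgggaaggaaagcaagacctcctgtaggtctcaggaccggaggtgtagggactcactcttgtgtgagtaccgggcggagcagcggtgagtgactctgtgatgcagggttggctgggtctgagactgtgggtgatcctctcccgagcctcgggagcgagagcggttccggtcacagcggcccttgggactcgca
Of these 6 windows, those of Neurod2 and Cck hold the E-box. A search of both strands for the MEF2-type motif CTANNNNTAG found none in them, so no matches overlapped. Among the 1040 higher genes with an entry, 10.5% held the E-box, against 11.2% of the 1098 lower genes, 11.2% of the 14293 tested genes and 14.5% of all 27025 genes with an entry. The MEF2-type motif was in 2.79% of the windows of higher genes, 2.19% of those of lower genes and 2.85% of those of tested genes. A match describes letters in the window and does not show a bound site.

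The name of the cortex-rich side was checked against markers that the ranking did not use. Ranked within groups, a list of 12 genes of cortical glutamatergic neurons, without Slc17a7, put 24 of 24 libraries on the same side. Some margins were small. In list mean (log2 CPM), SNI Gfp 3 had 1.70 against 1.58 in SNI Gfp 1, and Sham Mef2c 1 had 1.97 against 1.85 in Sham Mef2c 2. Across groups, 6 of the 12 cortex-rich libraries lay above every cortex-poor library. Of the 12 members of the list 12 were called higher, with a median log2 fold change of 1.79. In bulk tissue, more cortical cells and more RNA per cortical cell cannot be told apart. Neurod2, a transcription factor of cortical projection neurons, ranged from 0.551 to 104 CPM with a median of 15.8 in cortex-rich libraries, against 0.142 to 11.6 CPM with a median of 0.659 in cortex-poor libraries (log2 fold change 3.74, SE 0.67). The sides of Neurod2 did not overlap in 3 of the 4 groups. Neurod6, a related factor of pyramidal neurons, ranged from 0.172 to 31.0 CPM (median 4.09) against 0 to 3.77 CPM (median 0.204), with a log2 fold change of 3.70 (SE 0.78). Slc30a3 encodes the zinc transporter of glutamatergic vesicles. It ranged from 0.929 to 149 CPM (median 11.6) in cortex-rich and from 0.573 to 8.28 CPM (median 0.871) in cortex-poor libraries, a log2 fold change of 3.18 (SE 0.62). Neurod2 and Slc30a3 were highest in SNI Mef2c 1 and Neurod6 in SNI Gfp 4, the 2 libraries with the most Slc17a7. The log2 fold change was 1.87 (SE 0.44) for Emx1, a transcription factor of the dorsal telencephalon, and 1.85 (SE 0.52) for Tbr1, a factor of deep cortical neurons. The smaller differences in the list included those of Sv2b and Mal2. Sv2b, a vesicle protein, had 205 ± 112 CPM against 112 ± 31.3 CPM, and Mal2 83.5 ± 13.9 CPM against 72.8 ± 8.21 CPM (SD, n = 12 each), for log2 fold changes of 0.87 (SE 0.18) and 0.22 (SE 0.07). Neurod1 overlaps Cerkl, which had more counts, so its 1.74 (SE 0.48) is uncertain.

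Markers of single cortical layers gave few calls. Of 7 upper-layer genes, 0 were called, with a median of 0.10. Their levels lay close on both sides, as for Cux2, a homeobox gene of upper layers, at 79.0 ± 22.5 CPM in cortex-rich and 74.5 ± 11.6 CPM in cortex-poor libraries (SD, n = 12 each). Of 6 layer 5 genes, 0 were called higher and Parm1 was called lower (log2 fold change -0.69, SE 0.18). Fezf2, which specifies subcortically projecting neurons, had 0.96 (SE 0.32) and was not called. Of 9 layer 6 and subplate genes, 2 were called higher and the list median was 0.22. These were Cplx3, a complexin of subplate neurons, with 5.32 ± 5.48 CPM against 0.754 ± 0.606 CPM, and Ccn2, a matrix protein of layer 6b, with 10.2 ± 7.12 CPM against 2.95 ± 0.962 CPM (SD, n = 12 each). Their log2 fold changes were 2.74 (SE 0.47) and 1.71 (SE 0.26). Of 5 genes of the claustrum and endopiriform nucleus, Nr4a2, an orphan nuclear receptor, was called higher at 1.95 (SE 0.54) and Ntng2, a netrin-G, at 0.78 (SE 0.19), with a list median of 0.12. Of 4 genes of olfactory bulb projection neurons, 0 were called, or 1 without SNI Mef2c 1. The name cortex-rich rests on general cortical glutamatergic genes and on a few subplate and claustrum genes, while the upper-layer list was flat.

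**Figure D2:**
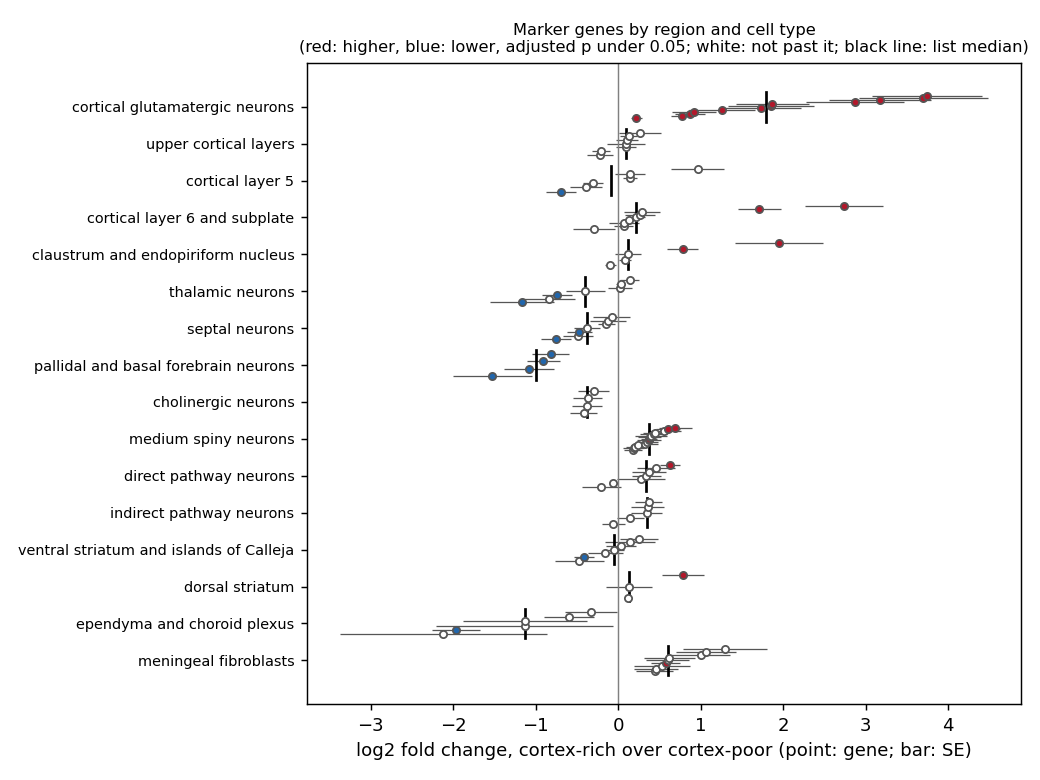
Log2 fold change of each marker gene, cortex-rich over cortex-poor, with its SE, by list, where filled points are genes past an adjusted p of 0.05 and the black line is the list median. The cortical glutamatergic list lies to the right (median 1.79) and the pallidal list to the left (median -0.99).

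The 15 largest rises held further genes beside those above. Ccn3, a matricellular protein, ranged from 9.07 to 151 CPM (median 31.97) in cortex-rich libraries, against 3.33 to 16.8 CPM (median 5.12) in cortex-poor libraries, and its sides did not overlap in any of the 4 groups (log2 fold change 2.42, SE 0.35). Cck, the cholecystokinin precursor, which cortical pyramidal cells and some interneurons make, ranged from 4.65 to 138 CPM (median 27.3) against 3.26 to 21.8 CPM (median 4.23), again with no overlap in any group (2.41, SE 0.47). The others included Kcnk15, a potassium channel of the two-pore family, Tbata, Prdm8, a transcriptional repressor of cortical neurons, Slc26a4, an anion exchanger, Slc22a2, an organic cation transporter, Prss12, the protease neurotrypsin, Igfn1 and Dkkl1. Their log2 fold changes lay between 2.11 (Igfn1, SE 0.66) and 3.28 (Kcnk15, SE 0.65). Slc22a2 was highest in SNI Gfp 3, at 9.68 CPM. It lost its call without that library and with log2 Slc17a7 as a continuous term. Dkkl1 lies near Slc17a7 on chromosome 7 (45207519 to 45212147) without overlapping it.

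Genes of the pallidum and basal forebrain ran the other way. Of 4 such genes 4 were called lower on the cortex-rich side, with a median log2 fold change of -0.99. Gbx1, a homeobox gene, ranged from 0.505 to 27.8 CPM (median 6.02) in cortex-rich libraries, against 3.34 to 40.6 CPM (median 21.7) in cortex-poor libraries (-1.52, SE 0.48). The sides overlapped in all groups but Sham Gfp, where libraries 1, 4 and 5 had 1.97, 2.94 and 1.57 CPM against 30.8, 35.2 and 13.5 CPM in libraries 2, 3 and 6. Lhx8, needed for cholinergic neurons of the basal forebrain, had -1.08 (SE 0.31), Nkx2-1, which specifies the medial ganglionic eminence, -0.91 (SE 0.20) and Lhx6, its target in interneurons, -0.82 (SE 0.23). Of 4 cholinergic genes 0 were called, with a median of -0.37. Of 7 septal genes, Crhr2, a receptor for urocortins, was called lower at -0.75 (SE 0.18) and Zic1 at -0.47 (SE 0.15), and the median was -0.38. Of 7 measured thalamic genes, Slc17a6 and Tcf7l2 were called lower and the median was -0.40. Slc17a6 encodes VGLUT2, the vesicular glutamate transporter of subcortical neurons, and had 10.7 ± 5.38 CPM on the cortex-rich side and 25.0 ± 16.9 CPM on the cortex-poor side (SD, n = 12 each; -1.17, SE 0.38). Slc17a8, for VGLUT3, was not called (-0.10, SE 0.16).

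The 15 largest falls included 3 LIM homeobox transcription factors. Lhx1 ranged from 0 to 1.02 CPM (median 0.108) in cortex-rich libraries, against 0.236 to 2.70 CPM (median 0.988) in cortex-poor libraries (-2.27, SE 0.51), and Lhx5 (-2.11, SE 0.52) and Lhx9 (-1.57, SE 0.45) were low on the same side. Prlr, the prolactin receptor, ranged from 0.379 to 4.85 CPM (median 1.25) against 1.49 to 18.5 CPM (median 6.10), with no overlap in any of the 4 groups (-1.96, SE 0.29). Irs4, an insulin receptor substrate, had 3.62 ± 3.38 CPM in cortex-rich and 15.01 ± 14.2 CPM in cortex-poor libraries (SD, n = 12 each; -1.90, SE 0.38), and its highest library was Sham Mef2c 4 at 52.8 CPM. Gal, the neuropeptide galanin, had 0.489 ± 0.426 CPM against 1.97 ± 2.83 CPM (-1.80, SE 0.43), and Sham Mef2c 4 was again highest, at 10.4 CPM. The GABA-A receptor subunits Gabrq and Gabre, both on the X chromosome, had -1.79 (SE 0.34) and -1.72 (SE 0.33). Pgr15l, Sostdc1, Cngb1 and Frem3 lay between -1.59 and -2.10. Sostdc1 stood at 18.8 CPM in SNI Gfp 6, against at most 1.80 CPM in every other library. It lost its call in 7 alternatives, among them log2 Slc17a7 as a continuous term. Nespas overlaps Gnas and Avpr1a overlaps Gm48877, each with more counts, so their -2.01 (SE 0.50) and -1.51 (SE 0.43) are uncertain. Of 6 measured genes of ependyma and choroid plexus 1 was called, Prlr. Ttr, the choroid plexus transthyretin, was not called and stood at 829 CPM in SNI Gfp 6, against 0.103 to 50.9 CPM in the other cortex-poor libraries.

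Medium spiny neuron genes also tended to have higher values on the cortex-rich side. Of 15 genes 3 were called higher and the list median was 0.38, with 15 of 15 values above 0. Pde10a, a striatal phosphodiesterase, had 993 ± 259 CPM against 678 ± 324 CPM (0.69, SE 0.20), Rasd2, a striatal small GTPase, 280 ± 55.7 CPM against 198 ± 80.1 CPM (0.61, SE 0.14), and Rasgrp2, a Rap exchange factor, 105 ± 18.9 CPM against 83.7 ± 18.2 CPM (0.38, SE 0.10; SD, n = 12 each). SNI Mef2c 1 stood apart: its list mean was 7.90 log2 CPM, against 8.88 to 9.10 in the other 5 libraries of its group. Without that library 15 of 15 genes were called higher with a median of 0.47, and Ppp1r1b, which encodes DARPP-32, had 0.47 against 0.38 with it. Calls over all genes also rose, from 1592 higher of 23737 to 2085 higher of 23961. The cortex-rich side exceeded the cortex-poor side in list mean by 0.74 log2 units in Sham Mef2c, 0.71 in Sham Gfp and 0.38 in SNI Gfp, and the difference was -0.37 in SNI Mef2c, or -0.02 without SNI Mef2c 1. In both sham groups every cortex-rich library lay above every cortex-poor library, while in both SNI groups the sides overlapped. Genes of the direct pathway gave 1 call of 7, Eya1, and 5 of 7 without SNI Mef2c 1. Genes of the indirect pathway gave 0 of 5, and 4 of 5 without it. SNI Mef2c 1 also had the lowest ventral striatum mean, at 4.44 log2 CPM, against at least 6.36 in every other library. Its dorsal striatum mean was the highest, at 7.03, so on these lists the library goes against its accumbens label. The dorsal list has only 3 genes, and this library also held the most Slc17a7. The cause of these levels was not tested. In the whole set, Zcchc12 was the 1 of 7 ventral genes called (lower, -0.41, SE 0.12) and Coch the 1 of 3 dorsal genes (higher, 0.78, SE 0.26; 2 of 3 without SNI Mef2c 1). Without SNI Mef2c 1 the cortical list gave 11 of 12 calls (median 1.36), all but Bhlhe22, and the pallidal list 4 of 4 (median -0.92).

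**Figure D3:**
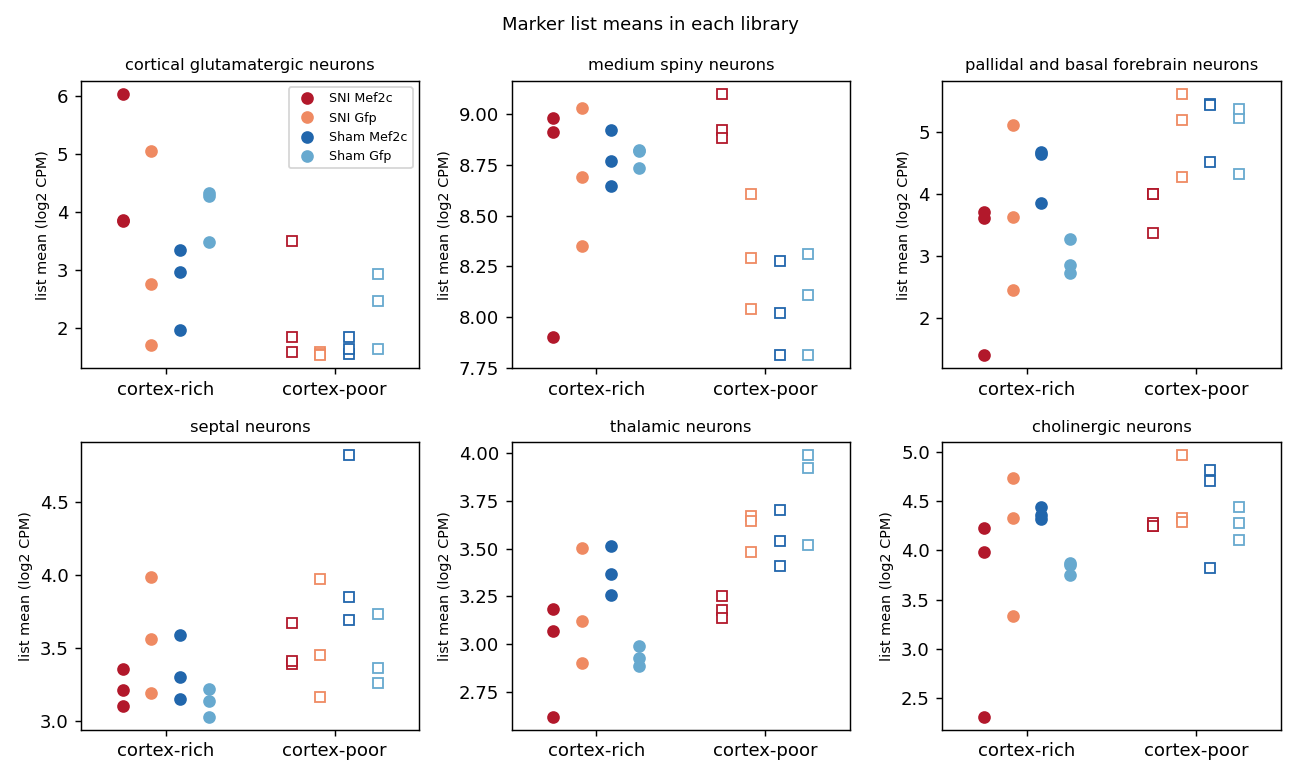
Mean log2 CPM of 6 marker lists in each library, cortex-rich (filled circles) left of cortex-poor (open squares), coloured by group. In the sham groups every cortex-rich library lies above every cortex-poor library in the medium spiny neuron mean, SNI Mef2c 1 lies low at 7.90, and the pallidal median is 3.62 on the cortex-rich and 4.86 on the cortex-poor side.

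Most calcium signalling genes of dendrites were called higher on the cortex-rich side. Of 13 such genes, 9 were called higher and 0 lower (median 0.26). They included Camkk2, a calmodulin-dependent kinase kinase, with 217 ± 47.2 CPM against 153 ± 33.2 CPM (0.54, SE 0.08), the calmodulin-binding protein gene Nrgn (0.67, SE 0.21), Camk2a (0.42, SE 0.09), Itpka (0.35, SE 0.10) and the calcineurin genes Ppp3ca and Ppp3r1 (0.27, SE 0.08 and 0.20, SE 0.05). Of 22 glutamate receptor genes, 6 were called higher and 1 lower (median 0.14). The NMDA receptor subunit gene Grin2a had 120 ± 23.2 CPM on the cortex-rich side and 88.5 ± 22.2 CPM on the cortex-poor side (0.49, SE 0.11), and the AMPA receptor subunit gene Gria3 had 406 ± 86.9 CPM against 309 ± 41.2 CPM (0.41, SE 0.08; SD, n = 12 each). Grin2c, Grik5, Grin2b and Grin1 lay between 0.13 and 0.37. Grin2d, the NMDA subunit of many interneurons, was lower (-0.46, SE 0.12). Without SNI Mef2c 1, 10 glutamate receptor genes were called higher and 3 lower (median 0.13), and of the calcium genes 9 were called higher and 2 lower. Of 6 genes of GABA synthesis and transport, 2 were called lower and the median was -0.24. They included the GABA transporter gene Slc6a11 (194 ± 65.0 CPM on the cortex-rich side and 328 ± 134 CPM on the cortex-poor side; -0.70, SE 0.18), while the GABA-synthesising enzymes Gad1 and Gad2 had -0.20 (SE 0.09) and -0.22 (SE 0.13) and were not called.

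Of 11 immediate early genes, which neurons transcribe after activity, 3 were called higher and the median was 0.45, with 11 of 11 values above 0. Without SNI Mef2c 1 the count was 5. Egr1 had 125 ± 36.4 CPM on the cortex-rich side and 86.4 ± 24.3 CPM on the cortex-poor side (0.57, SE 0.16), Nr4a1 57.6 ± 21.2 CPM against 38.2 ± 8.08 CPM (0.60, SE 0.17) and Egr4 21.5 ± 4.88 CPM against 15.8 ± 5.35 CPM (0.50, SE 0.16; SD, n = 12 each). Of 15 neuropeptide genes, Cck, Vip (1.93, SE 0.42) and Cort (0.36, SE 0.11) were called higher and Crh, corticotropin-releasing hormone, lower at 3.83 ± 2.11 CPM against 7.80 ± 3.53 CPM (-1.03, SE 0.28). Without SNI Mef2c 1, 5 neuropeptide genes were called higher and 2 lower. Of 10 interneuron genes, Vip was called higher and Calb2, calretinin, lower (-0.81, SE 0.25), whereas Sst, somatostatin, differed by 0.10 (SE 0.10) and was not called. In the MEF2 family of activity-dependent transcription factors, 2 of 4 were called higher, Mef2d (0.20, SE 0.04) and Mef2a (0.16, SE 0.05), the last of which overlaps Lysmd4 and is uncertain. Mef2c, the gene that the vector carries, had 324 ± 188 CPM on the cortex-rich and 264 ± 215 CPM on the cortex-poor side (SD, n = 12 each; 0.43, SE 0.16) and was not called. By group its difference was 0.02 (SE 0.26) in SNI Mef2c, 0.48 (SE 0.26) in SNI Gfp, 1.13 (SE 0.27) in Sham Mef2c and 0.11 (SE 0.26) in Sham Gfp. In Sham Mef2c, libraries 3, 6 and 1 had 244, 279 and 465 CPM of Mef2c, against 127, 124 and 213 CPM in libraries 2, 5 and 4, so the cortex-rich libraries of that group were also its Mef2c-rich ones.

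Glial and vascular lists gave few calls. Of 12 oligodendrocyte, 6 precursor, 12 microglial and 14 interferon response genes, 0 were called, with list medians of -0.15, -0.16, 0.02 and -0.15, and 1 precursor gene was called without SNI Mef2c 1. The interferon mean ranged from 0.86 to 5.27 log2 CPM (median 1.38) in cortex-rich and from 0.76 to 5.55 (median 1.16) in cortex-poor libraries, so the libraries with a strong interferon signal lay on both sides. Of 12 astrocyte genes, Slc1a2, the main astrocytic glutamate transporter, was called higher (0.25, SE 0.06) and Agt, angiotensinogen, lower (12.2 ± 10.4 CPM against 33.9 ± 23.9 CPM; -1.45, SE 0.34). Agt is the astrocyte gene with the largest difference, and the list median was -0.04. Among 6 endothelial genes Cldn5 and Flt1 were called higher at 0.22 (SE 0.07) and 0.18 (SE 0.05), and among 6 mural genes Pdgfrb at 0.22 (SE 0.04). Of 9 meningeal fibroblast genes 1 was called, Islr, and the median was 0.60, or 0.38 without SNI Gfp 3, whose fibroblast list mean was the highest at 5.09 log2 CPM. The mural list median was 0.32, or 0.11 without the same library. Of 4 measured blood genes Hbb-bt was called (0.70, SE 0.20). Of 9 neuroblast and dividing-cell genes and of 13 mitochondrially encoded genes 0 were called, with medians of -0.06 and 0.07. Of 4 measured sex-linked genes, Ddx3y was called lower by a small amount (-0.17, SE 0.04).

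The genes with the smallest p followed the split closely, several of them by small amounts. Efs, an adaptor of Src-family kinases, ranged from 15.2 to 21.97 CPM (median 17.6) in cortex-rich and from 16.3 to 30.3 CPM (median 24.7) in cortex-poor libraries (-0.38, SE 0.04). Ptgis, prostacyclin synthase, ranged from 19.2 to 29.9 CPM (median 22.7) against 14.0 to 20.5 CPM (median 17.4; 0.41, SE 0.05). For both the sides did not overlap in any of the 4 groups, although the ranges over all groups did. Dio2, which converts thyroid hormone to its active form, had 37.5 ± 16.5 CPM against 18.8 ± 5.60 CPM (1.03, SE 0.15), Igfbp6, which binds insulin-like growth factors, 0.92 (SE 0.14) and Ppp1r1a, an inhibitor of protein phosphatase 1, 0.41 (SE 0.06). Stxbp5l, Prkag2 and Tmem47 had 0.33 (SE 0.05), 0.29 (SE 0.04) and -0.24 (SE 0.04). Over all genes, 11 had no overlap in all 4 groups with the cortex-rich side higher (0.0463%) and 8 with it lower (0.0337%). Those 11 included Ptgis, Ccn3, Cck and Ppp1r1a, and those 8 included Efs, Prlr, Zfp655 and Scn11a, of which the last 2 were named after their values were seen.

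The genes most like Slc17a7 were found by the Pearson correlation of log2 CPM centred within groups, over 24 libraries that share depth and composition. Neurod2 came first (r = 0.99), followed by Slc30a3 (0.96), Cck (0.94), Vip (0.93), Neurod6 (0.93), Prdm8 (0.93), Cplx3 (0.93), Gfod1 (0.92), Rasl10a (0.92, which overlaps Gas2l1 and is uncertain) and Emx1 (0.92). Without the 2 libraries farthest from the median of Slc17a7, Neurod2 had 0.99 and Slc30a3 0.97. These values are descriptions of the libraries that the ranking used.

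Whether the difference between the sides was of unlike size in the 4 groups was tested by the interaction of group and split. None of 23737 genes passed (0 called, 0%) with edgeR's quasi-likelihood test, while 2344 had an unadjusted p under 0.05. The smallest p-values belonged to Scmh1, H1fx, Exph5, Kcnk15 and Traf3ip1, each with an adjusted p of 0.50. Kcnk15 differed by 6.65 (SE 0.84) in SNI Mef2c, 3.43 (SE 0.83) in SNI Gfp, -0.41 (SE 1.14) in Sham Mef2c and 1.05 (SE 0.86) in Sham Gfp. Neurod2 differed by 3.41 (SE 1.25), 5.67 (SE 1.55), 3.05 (SE 1.49) and 3.29 (SE 1.26) in the same order of groups, and Prlr by -1.04 (SE 0.63), -2.34 (SE 0.57), -2.08 (SE 0.56) and -2.19 (SE 0.60). Both genes thus kept 1 direction in all 4 groups.

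**Figure D4:**
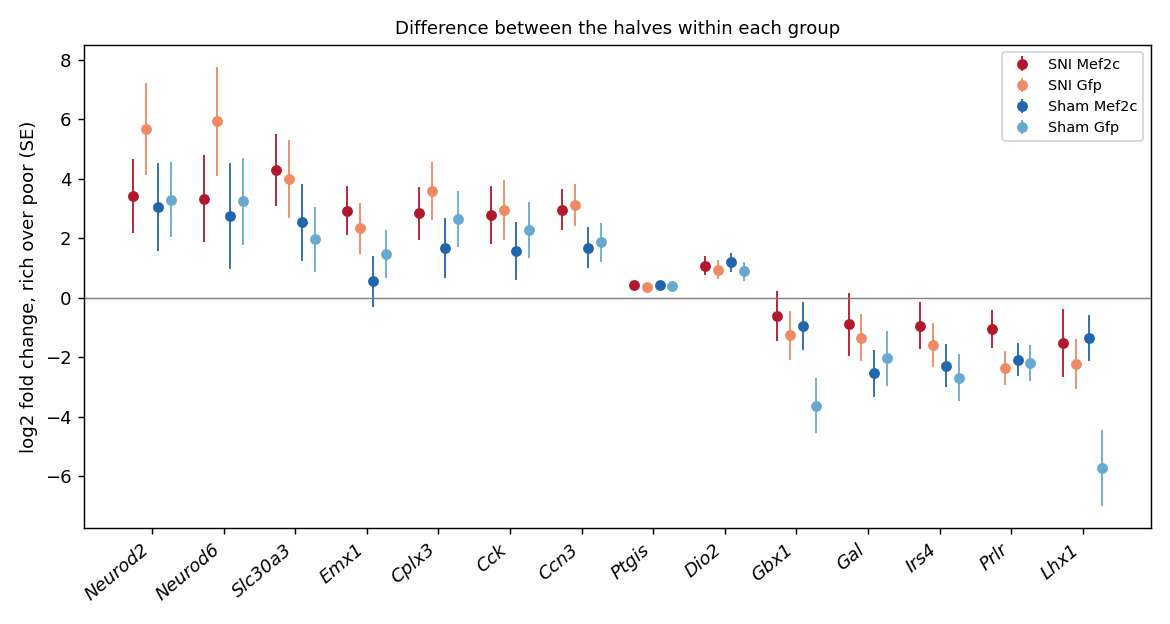
Log2 fold change, cortex-rich over cortex-poor, within each group for 14 genes, with the SE from the interaction fit. Neurod2 lies between 3.05 and 5.67 in the 4 groups and Prlr between -1.04 and -2.34.

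The ranking was made within groups, so the cortical content of whole groups was free to differ and was tested on the mean of the 12-gene cortical list. It was 3.44 ± 1.61 log2 CPM in SNI Mef2c and 2.22 ± 0.75 in Sham Mef2c (SD, n = 6 each; difference 1.22, two-sided exact permutation p = 0.0974, adjusted over 4 comparisons 0.195). It was 2.22 ± 0.75 in Sham Mef2c and 3.18 ± 1.05 in Sham Gfp (difference -0.96, exact permutation p = 0.0952, adjusted 0.195). It was 2.36 ± 1.40 in SNI Gfp and 3.18 ± 1.05 in Sham Gfp (difference -0.82, exact permutation p = 0.260, adjusted 0.260), and 3.44 ± 1.61 in SNI Mef2c and 2.36 ± 1.40 in SNI Gfp (difference 1.08, exact permutation p = 0.249, adjusted 0.260). The groups overlapped in every comparison and none of the 4 passed. These comparisons share groups and are not independent. Without SNI Mef2c 1 the difference was 0.70 against Sham Mef2c and 0.56 against SNI Gfp. Among SNI Gfp libraries, numbers 1, 3, 5 and 6 lay between 1.53 and 1.70, and numbers 2 and 4 had 2.76 and 5.06.

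The treatment comparisons were then fitted with the split as a term, which the balanced ranks allow. The sample numbers in the labels run by group, so an order of preparation that followed them cannot be told apart from treatment. For injury in mice with the Mef2c vector (SNI Mef2c against Sham Mef2c), 892 of 23738 genes passed edgeR's test (3.76%), 551 higher and 341 lower, whereas 0 passed without the term (0%, 3816 with an unadjusted p under 0.05). The genes with the smallest p were Lin7b, a synaptic scaffold gene (log2 fold change 0.42, SE 0.06, edgeR adjusted p 0.0121), Efs (-0.41, SE 0.06, adjusted p 0.0195) and Mef2c itself (1.41, SE 0.22, adjusted p 0.0195), followed by H13 and Ttl. Without the term the same 3 genes had 0.42, -0.42 and 1.33, with an adjusted p of 0.223 each, so the fold changes moved little. Mef2c is the vector gene, at 472 to 802 CPM in SNI Mef2c and 124 to 465 CPM in Sham Mef2c. In SNI Gfp against Sham Gfp, with the term, it had -0.04 (SE 0.22). Injury and the level of vector Mef2c therefore cannot be told apart in SNI Mef2c against Sham Mef2c. Lin7b, Efs, H13 and Ttl also followed the split, in the same direction as in this treatment comparison. Without SNI Mef2c 1 their log2 fold changes, cortex-rich over cortex-poor, were 0.231, -0.387, -0.0965 and 0.305, and each was called. Cortical markers were among the calls with the term. Slc17a7 had 3.64 (SE 0.98, edgeR adjusted p 0.0422) and is counted among the 892. The term was ranked on its own levels, so that p is not a test of it. Without the term Slc17a7 had 3.48 (edgeR adjusted p 0.250). Of the 12 cortical genes, Sv2b (0.95, SE 0.26, edgeR adjusted p 0.0427) and Kcnv1, a potassium channel subunit gene (0.90, SE 0.20, edgeR adjusted p 0.0223), were called with the term. In that fit 12 of 12 values lay above 0, with a list median of 1.43, against a median over all genes of 0.00. Without SNI Mef2c 1 Kcnv1 was the 1 gene of the cortical list called, the list median was 0.75 and Slc17a7 had 3.23 (SE 1.01). The ranks are balanced over the groups, so the term leaves a difference in cortical content between whole groups in place, and its part in the 892 calls was not tested. This count was not stable. It was 0 with log2 Slc17a7 as a continuous term and 211 with the replicate number as a block. It was 0 without Sham Mef2c 4 or SNI Mef2c 6, 5 without Sham Mef2c 1 or Sham Mef2c 6, 236 without SNI Mef2c 2, 244 without Sham Mef2c 5, 364 without SNI Mef2c 3 and 1372 without SNI Mef2c 1.

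For the Mef2c vector in sham mice (Sham Mef2c against Sham Gfp), 2609 genes passed with the split (11%), 620 higher and 1989 lower, and 2233 without it (9.41%), of which 2233 were among those with it. Mef2c itself had 0.45 (SE 0.22, edgeR adjusted p 0.216) and did not pass. The cortical list median was -0.87, with 1 of 12 values above 0 and 0 called (edgeR adjusted p), or 1 called lower without SNI Mef2c 1. The smallest p-values were those of Sult6b1, Mx2, Il1a, Gpr84 and Eif2ak2. Mx2, an interferon-induced antiviral gene, had a log2 fold change of -2.73 with and without the split (SE 0.33, edgeR adjusted p 0.000242 with it). Without Sham Gfp 3 the count with the split was 4025. For SNI Mef2c against SNI Gfp, 1 gene passed in both fits (0.00421%), Mef2c, at 1.90 (SE 0.22, edgeR adjusted p 0.000745). That count was 672 without SNI Gfp 2, 329 without SNI Gfp 5, 167 without SNI Gfp 1, and between 2 and 8 without any of Sham Gfp 2, Sham Gfp 3, Sham Mef2c 3, Sham Mef2c 4, SNI Mef2c 1 or SNI Mef2c 4. For SNI Gfp against Sham Gfp, 0 genes passed edgeR's test with the split (0%, 3170 with an unadjusted p under 0.05) and 0 without it (2928). That count was 1620 without SNI Gfp 6, 986 without Sham Gfp 3, 211 without SNI Gfp 4, and 1 without any of Sham Gfp 1, Sham Gfp 4 or SNI Gfp 2. The median SE of a gene's log2 fold change was 0.112 with the split and 0.119 without it. The 4 comparisons share libraries, so their counts are not independent of each other.

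**Figure D5:**
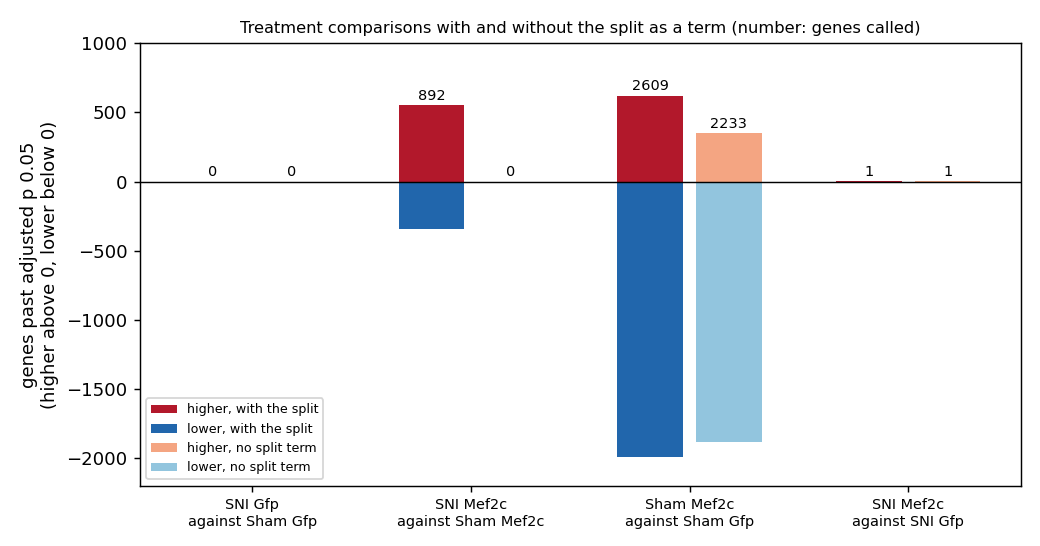
Genes past an adjusted p of 0.05 in the 4 treatment comparisons, with the split as a term (dark bars) and without it (light bars), higher above 0 and lower below. SNI Mef2c against Sham Mef2c has 892 calls with the term and 0 without it.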

How the data were processed

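The authors deposited raw counts per gene and an FPKM table for 24 libraries. Per the submitters' processing notes, featureCounts and the mm10 genome were used, and neither the aligner nor the annotation was stated in the labels. The deposited FPKM equalled the count over the library total and the gene span, introns included, for 42625 of 42625 genes compared (relative tolerance 1e-06), so the length used included introns, and whether intronic reads were counted is not given in the sources used here. Genes that overlap one with more counts are uncertain. Of 55401 gene IDs, 55141 matched GENCODE M21.

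Genes were kept with filterByExpr and tested with edgeR 4.0.16 (TMM, robust quasi-likelihood, two-sided, Benjamini and Hochberg, threshold 0.05) in R 4.3.3, with limma 3.58.1 and DESeq2 1.42.0 for alternatives. The model held group and split. Slc17a7 was fitted but not tested for the split or its interaction with group. In the treatment comparisons it was 1 of the 23738 genes tested. List means are in log2 CPM (prior count 2). The fit was also run on simulated counts, drawn independently for each gene and with no difference between groups. That run does not cover a split ranked from the data. None of the 276 pairs of libraries agreed within counting noise.

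The members, the lists and the tests were chosen with earlier results of these data known. The text names Slc17a7, Mef2c, the cortical list, and, of genes with at least 1 CPM on a side and no predicted name, the 15 that rose most, the 15 that fell most and the 10 with the smallest p, up to 6 members per list, the 10 genes most like Slc17a7 and the 5 smallest p of each other test. Some genes under this rule are not reported here. The counting precision of a gene depends on depth and on its level, and genes under 1 CPM rest on few reads.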

Additional observations from a re-analysis of the deposited data

Results flagged for a closer look

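Within groups of 6 libraries, the highest or lowest library was compared with the others by Dixon's 95% criterion (the gap to the nearest library over the range). Over 144 combinations of a group and a measure 23 values stood apart, while chance gives about 1 in 20. Slc17a7 was compared in CPM, a scale that sets high values farther apart than the log2 CPM of the lists. Its flags rest on the values that chose the libraries and are not a finding. The cause of each was not tested.

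SNI Mef2c 1, the library with the most Slc17a7 at 1113 CPM (other libraries of its group 4.10 to 222 CPM), stood apart in 14 combinations, that of Slc17a7 included. Its list mean in log2 CPM was low for medium spiny neurons (7.90), direct pathway (4.86) and indirect pathway neurons (5.35), the ventral striatum (4.44), pallidal (1.39), cholinergic (2.31) and thalamic neurons (2.62) and for GABA synthesis and transport (7.90). It was high for the dorsal striatum (7.03), interneurons (4.93), microglia (5.06), endothelial cells (5.32) and olfactory bulb projection neurons (1.13).

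SNI Gfp 4 stood apart at 559 CPM of Slc17a7 and with list means of 5.06 for cortical glutamatergic neurons, 5.81 for claustrum and 4.62 for neuropeptides. SNI Gfp 3, a cortex-rich library with only 5.85 CPM of Slc17a7, was high in endothelial (5.25) and mural cells (4.94). In Sham Mef2c, library 3 was high in claustrum genes (5.04), library 2 in neuroblasts and dividing cells (3.87) and library 6 in microglia (5.26).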

How the results depend on the processing

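The counts of higher and lower genes were 1269 and 2349 with the library size alone, 2534 and 2701 with limma-voom and quality weights, 1031 and 2254 with limma-trend on FPKM with 1 added and 1111 and 2238 with 0.1 added, against 1592 and 1560; the cause was not tested. Leaving out 1 library gave 1160 to 2085 higher genes and 892 to 2085 lower. With the library size alone SNI Gfp against Sham Gfp had 1 call and SNI Mef2c against SNI Gfp 3. With the replicate number as a block SNI Gfp against Sham Gfp had 2 and SNI Mef2c against Sham Mef2c 211; with log2 Slc17a7 as a continuous term they had 3 and 0, and without the split SNI Mef2c against Sham Mef2c had 0. Of 36 same-number pairs of libraries, 9 had a correlation over 0.1. Pairs of unlike number were not compared, so this does not decide whether the replicate numbers pair the libraries. Leaving out 1 library gave 0 to 1620, 0 to 1372, 1864 to 4025 and 1 to 672 calls for SNI Gfp against Sham Gfp, SNI Mef2c against Sham Mef2c, Sham Mef2c against Sham Gfp and SNI Mef2c against SNI Gfp, and 0 for the interaction. The cortical content difference was -1.36 to -0.59, 0.70 to 1.59, -1.27 to -0.74 and 0.56 to 1.62 in the same order. With the upper-layer list it reversed to 0.01 for SNI Gfp against Sham Gfp (0.00797) and 0.0122 for Sham Mef2c against Sham Gfp. Without SNI Gfp 3 and 6, chosen after seeing the data, 2183 genes were higher and 2316 lower. Of 46 named genes over up to 38 alternatives, 1628 of 1743 values kept their call, 115 lost it and 0 reversed. With the replicate block 6 of 12 cortical genes were called (median 1.31, 12 of 12 above 0), 10 of 15 medium spiny neuron genes, 9 glutamate receptor genes higher and 2 lower, 0 septal and 0 endothelial genes. Bhlhe22 lost its call in 22, Igfn1 in 16, Mal2 in 15, Gbx1 in 14 and Slc22a2 in 11.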
